A study of Mus musculus with 12 samples.

Results

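The comparison set livers labelled DKO against livers labelled p53KO, both at 8 weeks, and its members are the 4 libraries of these groups out of 12 in the series. Each group had 2 libraries, DKO 2 and DKO 3 against p53KO 1 and p53KO 2, chosen by their titles. The labels give the genotype of the first as p53KO_Gdown1KO_Alb-Cre and of the second as p53KO_Gdown1FF, and no treatment for either. By these labels p53KO mice lack p53 and carry floxed alleles of Gdown1 with no Cre named. DKO mice are labelled as having the same alleles and the same p53 loss. In addition they have Alb-Cre, a Cre recombinase driven by the albumin promoter, which removes Gdown1 in hepatocytes. All mice were C57BL/6 and the tissue was whole liver, which also holds cells other than hepatocytes. Which of those other cells kept their Gdown1 alleles was not tested. Cre was present only with the deletion, so the effects of the enzyme itself and of the deletion cannot be told apart. The other 8 libraries were 2 of FF (floxed Gdown1, p53 intact, no Cre) and 2 of KO (the same with Alb-Cre) at 7 weeks, and 2 of p53KO TAM and 2 of DKO TAM (p53 null livers without and with the tamoxifen-inducible Alb-CreERT2) taken 24 hours after tamoxifen. Nothing in the labels says that the 2 libraries of a group came from separate animals, so p-values measure the spread between libraries.

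Gdown1, the product of Polr2m, is a protein that binds RNA polymerase II tightly and competes with the initiation factor TFIIF, which makes initiation depend on the Mediator complex. p53 is the transcription factor that halts the cell cycle or starts cell death after damage, in large part through the kinase inhibitor p21, encoded by Cdkn1a. Hepatocytes of an adult liver are mostly quiescent and devote a large share of their mRNA to secreted proteins and metabolic enzymes. The comparison asks what loss of Gdown1 does to the liver transcriptome when p53 is absent.

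Total RNA was sequenced and reads were counted per gene, with 5618489 to 8408481 counts per library in the 4 livers and 4939408 to 8776369 in all 12. The expression filter kept 13693 of 23420 genes, which held 99.9% of the counts. Values of single libraries are given as CPM, the counts scaled to a library total of 1000000. Log2 fold changes are DKO over p53KO from edgeR's quasi-likelihood test, which estimated the spread from all 12 libraries, and a gene was called at a Benjamini-Hochberg adjusted p under 0.05. An adjusted p printed below is the TMM value. Because the most abundant liver mRNAs changed between the groups, each fold change is given on 2 scales. The first is TMM, which sets the bulk of genes to no change, and the second is the library total. The TMM factors were 0.826 and 0.831 in p53KO and 1.404 and 1.412 in DKO, and the median over the tested genes was a log2 fold change of 0.009 with TMM and 0.77 with library totals. In the text below, "rose" and "fell" are used only for genes called in that direction on both scales. Genes close to 0 counts in p53KO passed the expression filter through libraries of other groups and could then hardly fail to differ, so counts of list members are given as a description. In whole liver, fewer cells of a type and less RNA per cell cannot be told apart.

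Counts of the 2 targeted genes did not check the labels. Polr2m had 73.5 and 85.3 CPM in p53KO and 81.5 and 84.6 CPM in DKO, and its log2 fold change was -0.70 with TMM (SE 0.13) and 0.07 with library totals. The groups overlapped in CPM. Polr2m was nevertheless called lower with TMM, so its direction depended on the scale. With 1 library left out its TMM log2 fold change was -0.81 to -0.60. Trp53 had 2.54 and 2.31 CPM in p53KO and 11.8 and 11.5 CPM in DKO, and its log2 fold change was 1.48 with TMM (SE 0.29) and 2.25 with library totals (edgeR adjusted p = 0.0005 with TMM). Both DKO libraries were above both p53KO libraries, and FF livers with intact p53 had 11.7 and 6.79 CPM. Counts covered all exons of a gene and the labels do not say which exons the alleles delete, so neither gene's total tells whether the protein was lost. Group names below therefore refer to the libraries as labelled.

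Loss of Gdown1 on the p53 null background went with a broad change of the transcriptome. With TMM, 7042 genes were called (51.4% of those tested), 3517 higher (25.7%) and 3525 lower (25.7%). With library totals 9769 were called (71.3%), 8809 higher (64.3%) and 960 lower (7.01%). On both scales 3517 genes rose (25.7%) and 960 fell (7.01%), while 347 were called lower with TMM and higher with library totals. By at least 2-fold on both scales 2917 changed, of which 2459 rose. Counts were detected for 15366 and 15076 genes in the p53KO libraries and for 17589 and 17577 in the DKO libraries. Pearson's r of log2(CPM + 1) across genes was 0.987 between the p53KO libraries, 0.991 between the DKO libraries and 0.889 to 0.901 between groups, as a description across genes that are not independent.

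The shape of the mRNA pool changed. The 100 genes that were most abundant in FF livers held 38.6% and 38.2% of counts in p53KO and 21.4% and 21.3% in DKO. Of the decile of tested genes with the most reads per kilobase of exon in FF livers, 33.3% fell and 3.80% rose. A list of abundant liver genes is therefore read against that share as well. In the 3 deciles with the fewest reads 63.8%, 48.1% and 42.6% rose, so a list of genes with few counts is read against these shares. The falling share was 0.36% to 12.9% in the deciles below the top one. Every list below is also to be read against 25.7% rising and 7.01% falling over all genes. Albumin (Alb), the main plasma carrier protein, had 59044 and 59524 CPM in p53KO and 22082 and 27091 CPM in DKO. Apob, the structural protein of very-low-density lipoprotein, had 22505 and 26288 CPM in p53KO and 17543 and 15859 CPM in DKO. Both genes fell, with log2 fold changes of -2.04 with TMM and -1.27 with library totals and of -1.31 with TMM and -0.55 with library totals. Major urinary protein genes, which encode pheromone carriers made in bulk by male mouse liver, held 1.32% and 1.53% of counts in p53KO and 0.031% and 0.037% in DKO. Rn45s, the ribosomal RNA precursor, held 1.95% and 0.69% in p53KO and 1.55% and 1.64% in DKO, so the p53KO libraries differed from each other in ribosomal RNA and the groups overlapped. Among the 10 hepatocyte markers Alb, Ttr, Apoa1, Apob, Fgb, Hnf4a, Cps1, Cyp2e1, Cyp3a11 and Tat, the summed level was 120097 and 122389 CPM in p53KO and 61366 and 63539 CPM in DKO.

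**Figure D1:**
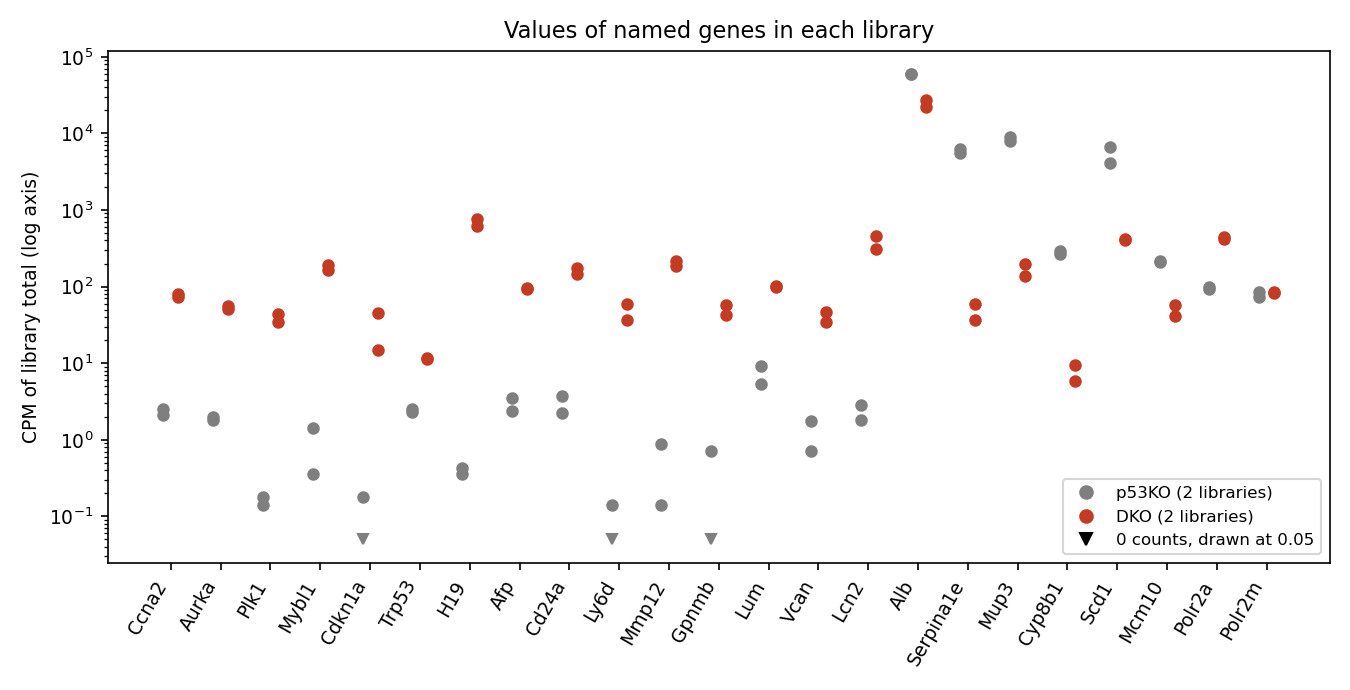
Level of 23 named genes in each library, in CPM of the library total on a log axis, with one point per library (grey p53KO, red DKO) and triangles for libraries with 0 counts. The 2 groups separate for every gene shown except Polr2m. Alb is the highest in both groups. Plk1 had 2 counts over the p53KO libraries, and Cdkn1a and Ly6d had fewer.

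Genes that drive cells into and through mitosis rose together. Cyclins bind and activate the cyclin-dependent kinases, and 10 of 13 listed members of these families rose and none fell, against 25.7% and 7.01% of all genes. Ccna2, the cyclin of S and G2 phase, had 2.11 and 2.49 CPM in p53KO and 80.8 and 73.6 CPM in DKO. Cdk1, the kinase of mitotic entry, had 0.704 and 1.25 CPM in p53KO and 45.5 and 46.5 CPM in DKO, and Ccnd1, the G1 cyclin, had 19.9 and 21.4 CPM in p53KO and 191 and 245 CPM in DKO. Both DKO libraries lay above both p53KO libraries for all 3 genes, and their log2 fold changes were 4.30 with TMM and 5.07 with library totals for Ccna2, 4.82 with TMM and 5.58 with library totals for Cdk1 and 2.64 with TMM and 3.41 with library totals for Ccnd1. Cdk6, a partner of the G1 cyclins, was called lower with TMM only, with a log2 fold change of -0.51 with TMM and 0.26 with library totals. Its call was lost without p53KO 2 or DKO 2 (edgeR adjusted p = 0.143 and 0.132), with DESeq2 (0.0731) and with upper-quartile scaling (0.168).

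Of 27 spindle motors and cytokinesis proteins all 27 rose, of 32 centromere and kinetochore proteins 30 rose, and of 27 mitotic kinases, checkpoint and anaphase-promoting complex genes 23 rose, with none falling in any list. The median log2 fold changes were 4.52, 2.72 and 3.21 with TMM and 5.29, 3.48 and 3.97 with library totals. Aurka, the centrosomal kinase of spindle assembly, had 1.83 and 1.96 CPM in p53KO and 51.6 and 55.0 CPM in DKO, with a log2 fold change of 4.04 with TMM (SE 0.25) and 4.81 with library totals and an edgeR adjusted p of 3.8e-09. Aspm, a protein of the spindle poles, had 5.49 and 4.27 CPM in p53KO and 143 and 150.4 CPM in DKO. Both DKO libraries were more than 10 times above either p53KO library for Aurka and Aspm. Birc5, the chromosomal passenger protein survivin, rose by 4.94 with TMM and 5.70 with library totals on the log2 scale, and Ndc80, the kinetochore protein that binds microtubules, by 4.69 with TMM and 5.44 with library totals. Some mitotic genes were close to absent in p53KO. Plk1, a kinase needed from centrosome maturation to cytokinesis, had 2 counts over the 2 p53KO libraries and 656 over the DKO libraries, a ratio with TMM of 147 (95% exact interval 40.5 to 1216, counting error only). Ube2c, the ubiquitin-conjugating enzyme of the anaphase-promoting complex, had 0 counts in p53KO and 17.8 and 14.6 CPM in DKO, which is at least 40.5-fold higher with TMM and at least 68.8-fold with library totals. The 2 kinetochore genes that did not pass on both scales were Zwint and Mis12, at log2 fold changes of 0.21 with TMM and 0.97 with library totals and 0.15 with TMM and 0.92 with library totals. The securin Pttg1 was called lower with TMM, at a log2 fold change of -0.49 with TMM and 0.28 with library totals. The call of Pttg1 was lost without any one of the 4 libraries (edgeR adjusted p from 0.0518 to 0.13), in a fit to the 4 libraries alone (0.0531), with upper-quartile scaling (0.208) and with DESeq2 (0.129).

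Promoters of the mitotic genes were inspected in RefSeq's sequences (build GRCm38.p6, 250 bases before to 50 after each start). Many promoters of genes transcribed in G2 and M phase carry a cell cycle homology region, abbreviated CHR, which the DREAM and MMB-FOXM1 complexes bind, and here it was searched as TTTGAA or its reverse complement TTCAAA. Of the 86 tested genes of the 3 mitotic lists 75 had a promoter in the table, 82 promoters in all, and 47 of these (57.3%) held the CHR word, against 17.9% of all 32851 promoters. The CCAAT word (CCAAT or ATTGG), bound by NF-Y, stood in 70.7% of the mitotic promoters and in 37.4% of all. In 56 promoters of replication genes the CHR word was found in 17.9% and E2F words (TTTCCCGC, TTTCGCGC, TTTGCCGC and TTTGGCGC, either strand) in 33.9%, against 2.26% of all promoters for the E2F words and 8.54% of the mitotic promoters. Words were searched on both strands and may overlap, and a match is a description of letters, not a binding site. The 4 mitotic genes shown had the largest TMM fold changes of those with a CHR word before the start, and each sequence gives the 250 bases before the start on the gene's strand with the CHR word in capitals.
Ube2c (chr2:164769679-164769928, plus strand): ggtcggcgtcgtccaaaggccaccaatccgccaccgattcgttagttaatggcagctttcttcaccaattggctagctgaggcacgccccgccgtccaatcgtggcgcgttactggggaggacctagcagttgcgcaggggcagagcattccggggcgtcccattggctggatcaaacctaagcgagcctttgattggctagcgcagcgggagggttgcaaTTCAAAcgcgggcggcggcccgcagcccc
Cep55 (chr19:38054791-38055040, plus strand): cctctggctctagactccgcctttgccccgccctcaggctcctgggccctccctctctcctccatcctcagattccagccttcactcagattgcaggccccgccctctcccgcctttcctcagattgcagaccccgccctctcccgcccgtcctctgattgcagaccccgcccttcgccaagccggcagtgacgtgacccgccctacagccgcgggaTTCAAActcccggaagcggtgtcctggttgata
Ckap2l (chr2:129297213-129297462, minus strand): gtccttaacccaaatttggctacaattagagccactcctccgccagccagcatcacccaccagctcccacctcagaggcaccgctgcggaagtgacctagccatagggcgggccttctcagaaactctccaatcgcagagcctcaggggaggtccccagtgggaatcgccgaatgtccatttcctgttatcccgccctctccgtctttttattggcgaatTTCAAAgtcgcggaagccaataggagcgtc
Kif2c (chr4:117178773-117179022, minus strand): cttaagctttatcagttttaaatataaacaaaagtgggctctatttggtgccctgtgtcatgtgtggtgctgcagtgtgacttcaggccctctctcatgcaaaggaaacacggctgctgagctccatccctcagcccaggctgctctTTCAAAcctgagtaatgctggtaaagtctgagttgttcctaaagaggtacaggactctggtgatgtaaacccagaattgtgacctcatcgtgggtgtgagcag
The CHR word began 29, 33 and 30 bases before the start in Ube2c, Cep55 and Ckap2l and 103 bases before it in Kif2c. Cep55, a protein of the midbody, had 0.282 and 0.356 CPM in p53KO and 38.2 and 36.5 CPM in DKO, and Ckap2l, a spindle protein, had 0.282 and 1.25 CPM in p53KO and 73.4 and 84.4 CPM in DKO. Kif2c, a kinesin that takes microtubules apart, had 0.423 and 0.356 CPM in p53KO and 34.0 and 40.4 CPM in DKO. All 4 genes were higher in both DKO libraries than in either p53KO library.

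Regulators of this gene set also changed. Of 20 E2F, DP, Rb and MuvB factors 10 rose and 1 fell, against 25.7% and 7.01% of all genes. In the 3 deciles with the fewest reads in FF livers 63.8%, 48.1% and 42.6% rose. Mybl1, the A-Myb transcription factor, had 1.41 and 0.356 CPM in p53KO and 163 and 194 CPM in DKO, with a log2 fold change of 6.78 with TMM (SE 0.66) and 7.54 with library totals. Foxm1, the forkhead activator of G2 and M phase genes, had 0.563 and 0.89 CPM in p53KO and 33.7 and 33.4 CPM in DKO (log2 fold change 4.77 with TMM and 5.53 with library totals). Mybl2, the B-Myb subunit of the MMB complex, had 0.282 and 0.356 CPM in p53KO and 3.92 and 6.16 CPM in DKO (log2 fold change 3.18 with TMM and 3.92 with library totals). The DKO libraries were above the p53KO libraries for each. The pocket proteins, which hold E2F factors inactive, moved apart: Rbl1 (p107) rose from 6.06 and 4.63 to 48.0 and 56.6 CPM, while Rbl2 (p130), the pocket protein of quiescent cells, had 131 and 139.7 CPM in p53KO and 98.9 and 99.3 CPM in DKO and fell, with a log2 fold change of -1.22 with TMM and -0.45 with library totals.

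Most genes of DNA replication rose as well. Of 27 origin licensing and firing genes 20 rose and 1 fell, and of 26 polymerase and fork genes 20 rose and none fell, with median log2 fold changes of 2.11 and 1.5 with TMM and 2.88 and 2.26 with library totals. Mcm5, a subunit of the replicative helicase, had 1.97 and 1.96 CPM in p53KO and 37.1 and 42.4 CPM in DKO (log2 fold change 3.56 with TMM and 4.32 with library totals). Uhrf1, which carries DNA methylation through replication, had 0.704 and 0.712 CPM in p53KO and 20.7 and 23.5 CPM in DKO (log2 fold change 4.17 with TMM and 4.93 with library totals). Orc3, a subunit of the origin recognition complex, had a log2 fold change of -0.17 with TMM and 0.60 with library totals and did not pass with TMM. Mcm10, a helicase activator, was the one that fell. It had 208 and 218 CPM in p53KO and 57.4 and 41.9 CPM in DKO, with a log2 fold change of -2.86 with TMM (SE 0.31) and -2.10 with library totals and an edgeR adjusted p of 5.8e-05, and FF livers had 93.7 and 116 CPM. Both DKO libraries were below both p53KO libraries.

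Among 31 genes of homologous recombination, the Fanconi pathway and checkpoints 25 rose and none fell. Polq, the polymerase of end joining through microhomology, had 0.704 and 0.89 CPM in p53KO and 25.2 and 27.0 CPM in DKO (log2 fold change 4.26 with TMM and 5.02 with library totals). Blm, the Bloom helicase, had 5.21 and 5.16 CPM in p53KO and 38.8 and 34.6 CPM in DKO (log2 fold change 2.05 with TMM and 2.82 with library totals). Atm, the kinase that signals double-strand breaks, had a log2 fold change of -0.68 with TMM and 0.08 with library totals and was called lower with TMM only. Of 27 nucleotide and folate enzymes 10 rose and 3 fell, shares not far from the 25.7% and 7.01% of all genes. Dck, which salvages deoxynucleosides, rose from 7.18 and 6.76 to 39.7 and 39.8 CPM, and Mthfd2, the mitochondrial folate enzyme of dividing cells, from 2.68 and 1.60 to 12.1 and 14.2 CPM. The 3 that fell, Paics of purine synthesis and the cytosolic folate enzymes Mthfd1 and Shmt1, were abundant in p53KO, at 183 and 176 CPM for Paics and 304 and 253 CPM for Mthfd1.

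Inhibitors of cyclin-dependent kinases rose beside the cyclins. All 7 that passed the expression filter rose, and Cdkn2a did not pass it, at up to 0.845 CPM. Cdkn1a, the p21 gene that p53 activates, had 0 and 0.178 CPM in p53KO and 14.9 and 45.0 CPM in DKO. Its DKO libraries differed about 3-fold from each other, and over the group it had 1 count in p53KO and 498 in DKO, a ratio with TMM of 223 (95% exact interval 39.9 to 8831, counting error only). The call of Cdkn1a was lost without either p53KO library (edgeR adjusted p = 0.0962 without p53KO 1 and 0.0657 without p53KO 2) and with limma-voom (adjusted p = 0.16). KO livers, with p53 intact, had 69.0 and 84.2 CPM and FF livers 1.01 and 0.738. Cdkn1c, the imprinted p57 inhibitor, had 0.704 and 1.25 CPM in p53KO and 23.9 and 14.6 CPM in DKO (log2 fold change 3.56 with TMM and 4.32 with library totals). Cdkn2c, which acts on the G1 kinases, had 1.27 and 2.49 CPM in p53KO and 10.8 and 8.81 CPM in DKO (log2 fold change 1.65 with TMM and 2.42 with library totals).

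Of 33 genes known as p53 targets, 14 rose (42.4%) and 1, Dcxr, fell, against 25.7% and 7.01% of all genes. In the 3 deciles with the fewest reads in FF livers 63.8%, 48.1% and 42.6% rose. Several of the risers are also cell cycle genes, such as Gtse1 and Ckap2, at log2 fold changes of 3.63 with TMM and 4.39 with library totals and 5.45 with TMM and 6.20 with library totals. Pmaip1, which encodes the death activator Noxa, had 1.69 and 1.96 CPM in p53KO and 12.8 and 15.1 CPM in DKO (log2 fold change 2.17 with TMM and 2.93 with library totals). Tnfrsf10b, a TRAIL receptor, had 0.141 and 0.356 CPM in p53KO and 3.45 and 3.62 CPM in DKO, from 3 counts and 59 counts, a ratio with TMM of 8.81 (95% exact interval 2.87 to 44.0, counting error only). Mdm2, the ubiquitin ligase that p53 induces and that degrades p53, had 53.7 and 43.1 CPM in p53KO and 72.7 and 79.9 CPM in DKO, and it did not pass with TMM (log2 fold change -0.11 with TMM and 0.65 with library totals). Mdm2 and Ccng1 were chosen after their values were seen. Ccng1 and Trp53inp1 were called lower with TMM and not with library totals, with TMM log2 fold changes of -0.59 and -0.73. The call of Ccng1 was lost without DKO 3 (edgeR adjusted p = 0.0506), and that of Trp53inp1 without any one of the 4 libraries (0.0584 to 0.0792) and with upper-quartile scaling (0.0655). Of 27 apoptosis and necroptosis genes 12 rose (44.4%) and none fell, to be read against the same shares. Among the risers, Casp12 had 2.54 and 2.85 CPM in p53KO and 22.8 and 25.8 CPM in DKO. Apaf1, the apoptosome scaffold, had 8.45 and 7.30 CPM in p53KO and 28.7 and 33.6 CPM in DKO. Bcl2, the survival factor, had 6.06 and 6.05 CPM in p53KO and 20.1 and 22.6 CPM in DKO. Mcl1, a survival factor of hepatocytes, had a log2 fold change of -0.15 with TMM and 0.61 with library totals and did not pass with TMM.

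Of 12 subunits of RNA polymerase II, which Gdown1 binds, 2 rose and none fell on both scales, near the shares of all genes (25.7% and 7.01%). Polr2a, the catalytic subunit with the carboxy-terminal repeat, had 93.4 and 99.5 CPM in p53KO and 417 and 442 CPM in DKO, with a log2 fold change of 1.39 with TMM (SE 0.12) and 2.15 with library totals and an edgeR adjusted p of 1.5e-07. Both DKO libraries were more than 4 times above either p53KO library. Polr2g was the other riser (log2 fold change 0.88 with TMM and 1.65 with library totals). Its call was lost without p53KO 2, DKO 2 or DKO 3 (edgeR adjusted p = 0.312, 0.0973 and 0.0776), and with DESeq2 (adjusted p = 0.059). Polr2b, the second largest subunit, had a log2 fold change of 0.28 with TMM and 1.05 with library totals, and Polr2i was called lower with TMM only (log2 fold change -1.10 with TMM and -0.34 with library totals). Without p53KO 1 the call of Polr2i was lost, at a TMM log2 fold change of -0.58 (edgeR adjusted p = 0.224). Polr2a was also higher in the other experiments, at 79.2 and 80.4 CPM in FF against 354 and 301 in KO, and at 82.3 and 92.1 in p53KO TAM against 379.5 and 377 in DKO TAM. Of 34 initiation, pausing and elongation factors 6 rose and none fell, likewise near those shares, with a median of -0.04 with TMM and 0.72 with library totals. Gtf2f1, the large subunit of TFIIF that Gdown1 displaces, rose from 24.1 and 21.5 to 51.6 and 59.9 CPM (log2 fold change 0.52 with TMM and 1.28 with library totals). Nelfa, a subunit of the pausing factor NELF, rose from 7.89 and 10.1 to 23.9 and 27.0 CPM (log2 fold change 0.74 with TMM and 1.51 with library totals). Neither call was stable to leaving out a library, with an edgeR adjusted p for Gtf2f1 of 0.0863 without p53KO 2 and 0.11 without DKO 3, and for Nelfa of 0.0623 without p53KO 1.

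Most listed genes of fetal liver and of liver tumours rose. Of 32 oncofetal and imprinted growth genes 9 did not pass the expression filter, 20 rose (87.0% of those tested) and 1 fell. Over all genes 25.7% rose and 7.01% fell, and in the decile with the fewest reads in FF livers 63.8% rose. H19, the imprinted non-coding RNA of fetal liver, had 0.423 and 0.356 CPM in p53KO and 627 and 768 CPM in DKO, with 5 counts over the p53KO libraries and 11628 over the DKO libraries and a log2 fold change of 9.97 with TMM (SE 1.02) and 10.73 with library totals. Afp, alpha-fetoprotein, had 2.39 and 3.56 CPM in p53KO and 96.1 and 92.0 CPM in DKO (log2 fold change 4.24 with TMM and 5.0 with library totals). Igf2, the fetal growth factor encoded beside H19, had 0.563 and 1.25 CPM in p53KO and 119 and 83.2 CPM in DKO (log2 fold change 6.07 with TMM and 6.83 with library totals). Cd24a, a surface protein of progenitor cells, had 2.25 and 3.74 CPM in p53KO and 147 and 175 CPM in DKO (log2 fold change 5.01 with TMM and 5.77 with library totals). Golm1, a Golgi protein used as a tumour marker, had 2.96 and 4.45 CPM in p53KO and 103 and 119 CPM in DKO (log2 fold change 4.16 with TMM and 4.93 with library totals). Each of these genes was at least 10 times higher in either DKO library than in either p53KO library. Ly6d had 1 count in p53KO and 804 in DKO, a ratio with TMM of 360.2 (95% exact interval 64.5 to 14246, counting error only), and Cdh17, a cadherin of intestine, had 0 counts in p53KO and 4.88 and 5.31 CPM in DKO, which is at least 12.7-fold higher with TMM and at least 21.6-fold with library totals. Among imprinted genes, Peg10 rose from 1.13 and 2.31 to 21.2 and 21.6 CPM, Meg3 from 20.1 and 23.7 to 351 and 204 CPM and Grb10 from 8.73 and 13.5 to 44.4 and 42.4 CPM, whereas the amino acid transporter Slc38a4 had 1375 and 1681 CPM in p53KO and 924 and 798 CPM in DKO and fell (log2 fold change -1.59 with TMM and -0.83 with library totals).

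Among 12 protein-coding genes with the largest TMM rise, several were also at 0 counts in p53KO. Krt20, an intermediate filament of intestinal epithelium, had 16.1 and 23.5 CPM in DKO, which is at least 49.3-fold higher with TMM and at least 83.8-fold with library totals. Mmp7, a matrix protease of epithelia, had 6.42 and 10.02 CPM, at least 20.5-fold higher with TMM and at least 34.8-fold with library totals. The hydroxysteroid sulfotransferases Sult2a1 and Sult2a2, which are near-identical copies whose counts may be exchanged, had 28.2 and 17.0 and 16.3 and 16.4 CPM. In all, 90 genes had 0 counts in both p53KO libraries and over 3 in DKO, and 7 had the reverse.

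Markers of bile duct cells, stellate cells and macrophages were higher in DKO, and markers of sinusoidal endothelium were not on both scales. Biliary cells line the ducts, and hepatocytes can also express biliary genes. Of 21 biliary and ductular genes past the filter, out of 26, 18 rose (85.7%) and none fell. The decile with the fewest reads in FF livers had 63.8% rising. Sox4 had 4.08 and 4.98 CPM in p53KO and 55.3 and 63.0 CPM in DKO (log2 fold change 2.95 with TMM and 3.71 with library totals). Epcam, an adhesion protein of ducts and progenitors, had 1.27 and 1.07 CPM in p53KO and 17.1 and 20.2 CPM in DKO (log2 fold change 3.20 with TMM and 3.96 with library totals). Cftr, the chloride channel, had 0.282 and 0.712 CPM in p53KO and 12.5 and 10.3 CPM in DKO (log2 fold change 3.78 with TMM and 4.53 with library totals). The DKO libraries were above the p53KO libraries for these genes, and the summed level of all 26 was 519 and 497 CPM in p53KO and 1840.5 and 2189 CPM in DKO. The duct keratin Krt7 did not pass the filter, at up to 2.53 CPM. Krt19 had 0.563 and 1.25 CPM in p53KO and 6.78 and 4.71 CPM in DKO. The call of Krt19 with TMM was lost without p53KO 1, at a log2 fold change of 1.42.

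Of 13 stellate cell markers, the vitamin A-storing cells that turn into matrix-producing myofibroblasts, 10 rose and none fell on both scales. Pdgfra and Pdgfrb, the receptors for platelet-derived growth factor, had log2 fold changes of 2.26 with TMM and 3.03 with library totals and 1.74 with TMM and 2.5 with library totals, and Reln had 88.6 and 101 CPM in p53KO and 368 and 321 CPM in DKO. Of 43 collagen, matrix and myofibroblast genes 38 rose and 1 fell, with a median of 1.97 with TMM and 2.74 with library totals. Lum, a collagen-binding proteoglycan, had 5.35 and 9.26 CPM in p53KO and 99.3 and 103 CPM in DKO, with a log2 fold change of 3.05 with TMM (SE 0.21) and 3.82 with library totals. Fbn1, the fibrillin of microfibrils, had 13.9 and 13.5 CPM in p53KO and 131 and 144 CPM in DKO (log2 fold change 2.56 with TMM and 3.32 with library totals). Loxl2, which cross-links collagen, had 7.61 and 7.83 CPM in p53KO and 107 and 112 CPM in DKO (log2 fold change 3.06 with TMM and 3.82 with library totals). All were higher in both DKO libraries. Vcan rose from 0.704 and 1.78 to 34.4 and 46.0 CPM, and the collagenase Mmp13 from 0.423 and 1.25 to 70.4 and 57.3 CPM. The 5 genes that did not rise were Col5a3, which fell (log2 fold change -1.23 with TMM and -0.47 with library totals), Timp3 and Dpt, called with library totals only (log2 fold changes 0.30 with TMM and 1.07 with library totals and 0.37 with TMM and 1.13 with library totals), and the abundant Fn1 and Col18a1, which hepatocytes also make. Fn1 and Col18a1 were called lower with TMM only, at log2 fold changes of -0.76 with TMM and 0.01 with library totals and -0.78 with TMM and -0.02 with library totals. Summed stellate markers were 424 and 406 CPM in p53KO and 1455 and 1477 CPM in DKO, and the part of cell number in the rise of matrix genes was not tested.

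Kupffer cells are the resident macrophages of liver, and 12 of their 14 markers rose. Marco, a scavenger receptor, had 7.61 and 5.34 CPM in p53KO and 77.8 and 119 CPM in DKO (log2 fold change 3.14 with TMM and 3.90 with library totals). Clec4f, a lectin restricted to Kupffer cells, had 120.4 and 111 CPM in p53KO and 337 and 339 CPM in DKO (log2 fold change 0.78 with TMM and 1.55 with library totals). Of 14 markers of monocytes and lipid-associated macrophages 13 rose, with a median log2 fold change of 3.20 with TMM and 3.95 with library totals. Mmp12, the macrophage elastase, had 0.141 and 0.89 CPM in p53KO and 188 and 213 CPM in DKO (log2 fold change 7.92 with TMM and 8.67 with library totals). Gpnmb had 4 counts in p53KO and 842 in DKO, Trem2 had 0 in p53KO and 3.57 and 5.79 CPM in DKO, and Itgax, the CD11c integrin, had 1.13 and 1.07 CPM in p53KO and 22.7 and 23.2 CPM in DKO (log2 fold change 3.60 with TMM and 4.36 with library totals). All 4 genes separated the groups, and the summed markers were 126 and 121 CPM in p53KO and 879 and 989.9 CPM in DKO. Of 21 endothelial markers 2 rose, Lyve1 and Cdh5, with a median of 0.05 with TMM and 0.81 with library totals, and the calls of both were lost without p53KO 1 (edgeR adjusted p = 0.17 and 0.14), p53KO 2 (0.0915 and 0.115) or DKO 2 (0.131 and 0.274), and that of Cdh5 also without DKO 3 (0.0642), with DESeq2 (0.0762) and with no filter beyond 1 count (0.087). Stab2, a scavenger receptor of sinusoids, had 170.3 and 180.3 CPM in p53KO and 227 and 197 CPM in DKO (log2 fold change -0.49 with TMM and 0.27 with library totals). It was called lower with TMM. That call was lost without DKO 3 (log2 fold change -0.39) and with upper-quartile scaling (log2 fold change -0.28).

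**Figure D2:**
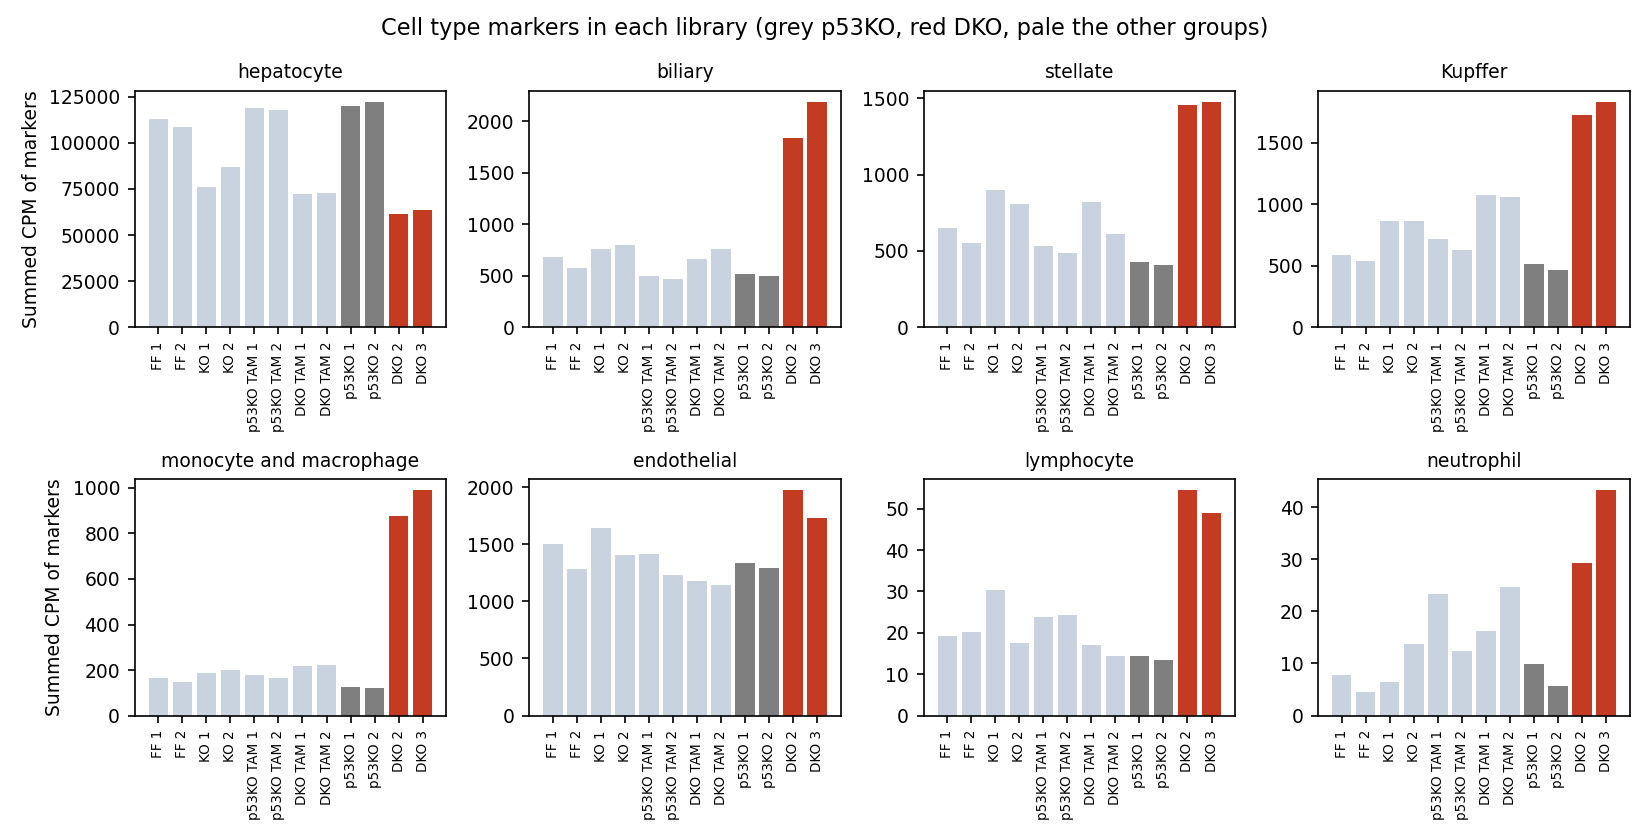
Summed CPM of cell type markers in each of the 12 libraries (grey p53KO, red DKO, pale the other groups), one panel per cell type with its own axis from 0. In the DKO libraries the monocyte and macrophage sum reaches 879 and 990 CPM, against 121 and 126 in p53KO, while the hepatocyte sum is 61366 and 63539 CPM against 120097 and 122389.

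Lymphocyte and neutrophil markers had few counts. Of 21 lymphocyte markers 10 passed the filter and 5 rose, below the 63.8% rising in the decile with the fewest reads in FF livers. The sum of all 21 was 14.5 and 13.3 CPM in p53KO and 54.5 and 49.0 CPM in DKO. Neutrophil markers, 5 of 11 past the filter, summed to 9.86 and 5.70 CPM in p53KO and 29.3 and 43.2 CPM in DKO. Cd3d, a subunit of the T cell receptor complex, was at 0 in p53KO and at most 0.357 CPM in DKO. Of 20 chemokines and cytokines past the filter, out of 28, 13 rose (65.0%) and none fell. That rising share was near the 63.8% of the decile with the fewest reads in FF livers. Ccl2, which attracts monocytes, had 0.282 and 0.356 CPM in p53KO and 5.59 and 6.28 CPM in DKO, Ccl6 had 14.4 and 8.72 CPM in p53KO and 100.3 and 128 CPM in DKO and Cxcl16 had 13.7 and 10.1 CPM in p53KO and 58.6 and 53.5 CPM in DKO. Log2 fold changes were 3.41 with TMM and 4.16 with library totals, 2.52 with TMM and 3.28 with library totals and 1.46 with TMM and 2.22 with library totals in that order, and all 3 genes were higher in both DKO libraries. Il6 did not pass the filter.

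Of 26 interferon response genes 17 rose (65.4%) and none fell, and their median log2 fold change was 0.80 with TMM and 1.57 with library totals. Over all genes 25.7% rose, and in the decile with the fewest reads in FF livers 63.8%. Oasl2, an antiviral sensor protein, had 11.8 and 13.3 CPM in p53KO and 61.5 and 66.5 CPM in DKO (log2 fold change 1.58 with TMM and 2.35 with library totals). Mx1, the Mx GTPase, had 2.82 and 2.85 CPM in p53KO and 15.1 and 20.5 CPM in DKO (log2 fold change 1.88 with TMM and 2.65 with library totals). Trim30a had 18.5 and 18.9 CPM in p53KO and 91.6 and 75.3 CPM in DKO (log2 fold change 1.40 with TMM and 2.16 with library totals). Both DKO libraries were above both p53KO libraries for the 3 genes. Of 15 antigen presentation genes 6 rose, the class II genes H2-Aa, H2-Ab1, H2-Eb1, Cd74, Ciita and H2-DMa (Cd74 not without DKO 2, edgeR adjusted p = 0.0571), while the class I genes H2-K1 and B2m were called lower with TMM only, at -1.0 with TMM and -0.23 with library totals and at -0.91 with TMM and -0.15 with library totals.

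Stress genes were divided. Of 19 targets of NRF2, the transcription factor of the oxidative stress response, 10 rose (52.6%) and none fell. Over all genes 25.7% rose, and in the 3 deciles with the fewest reads in FF livers 63.8%, 48.1% and 42.6% rose. Hmox1, heme oxygenase, had 13.1 and 10.5 CPM in p53KO and 77.3 and 95.4 CPM in DKO (log2 fold change 2.09 with TMM and 2.86 with library totals). G6pdx, the enzyme of the pentose phosphate shunt that supplies NADPH, had 5.35 and 7.12 CPM in p53KO and 59.2 and 59.1 CPM in DKO (log2 fold change 2.49 with TMM and 3.26 with library totals). Slc7a11, the cystine transporter, had 0 counts in p53KO and 6.42 and 8.09 CPM in DKO, which is at least 18.1-fold higher with TMM and at least 30.7-fold with library totals. Both DKO libraries were higher for each. Gclc, the catalytic subunit of the enzyme that limits glutathione synthesis, was called lower with TMM only (log2 fold change -0.89 with TMM and -0.12 with library totals), and the call was lost without p53KO 2 or DKO 3 (edgeR adjusted p = 0.0708 and 0.0857). Lcn2, a secreted iron-sequestering protein, had 1.83 and 2.85 CPM in p53KO and 313 and 459.8 CPM in DKO (log2 fold change 6.62 with TMM and 7.39 with library totals). Il1rn, the interleukin-1 receptor antagonist, had 3.10 and 2.67 CPM in p53KO and 45.9 and 53.6 CPM in DKO (log2 fold change 3.33 with TMM and 4.09 with library totals). The call of Lcn2 was lost without p53KO 1 (edgeR adjusted p = 0.0603). These were the 2 risers among 19 acute phase genes, and 2 fell, Crp and Saa4, from 197 and 233 to 43.1 and 44.3 CPM and from 399 and 533 to 118 and 97.5 CPM. Of 22 genes of endoplasmic reticulum folding and the unfolded protein response 4 rose and 3 fell, with Asns and Atf3 rising by 1.75 with TMM and 2.51 with library totals and 1.84 with TMM and 2.61 with library totals and Herpud1 falling (log2 fold change -2.04 with TMM and -1.27 with library totals).

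Proteins that hepatocytes secrete into plasma fell in large part, set against 7.01% of all genes and the 33.3% of the most abundant decile. Of 25 coagulation proteins 19 fell and none rose, of 20 complement proteins 18 fell and 1 rose, and of 24 plasma carriers and protease inhibitors 16 fell and none rose. Klkb1, plasma prekallikrein, had 375 and 399 CPM in p53KO and 63.3 and 57.7 CPM in DKO (log2 fold change -3.44 with TMM and -2.68 with library totals). Hrg, histidine-rich glycoprotein, had 964 and 1034 CPM in p53KO and 347 and 326 CPM in DKO (log2 fold change -2.33 with TMM and -1.57 with library totals). C9, the pore-forming component of complement, had 863 and 960.2 CPM in p53KO and 216 and 244 CPM in DKO (log2 fold change -2.75 with TMM and -1.98 with library totals). The DKO libraries were below the p53KO libraries for all 3. Of the fibrinogen chains, Fgb fell (log2 fold change -1.26 with TMM and -0.5 with library totals). Fga was called with TMM only (log2 fold change -0.90 with TMM and -0.13 with library totals). Cfp, properdin, which myeloid cells make, was the complement gene that rose, from 16.9 and 13.3 to 51.1 and 47.9 CPM. In the 80 promoters found for these 3 lists and the apolipoproteins together, the CCAAT word stood in 32.5% and the TATAAA word in 17.5% (8.32% of all promoters). The HNF4A words searched (CAAAGGTCA and CAAAGTCCA, either strand) stood in 2 promoters (2.5%), against 0.95% of all, too few matches for a comparison. The promoter of F7, coagulation factor VII, is shown because it holds such a word before the start, in capitals, 34 bases upstream.
F7 (chr8:13025784-13026033, plus strand): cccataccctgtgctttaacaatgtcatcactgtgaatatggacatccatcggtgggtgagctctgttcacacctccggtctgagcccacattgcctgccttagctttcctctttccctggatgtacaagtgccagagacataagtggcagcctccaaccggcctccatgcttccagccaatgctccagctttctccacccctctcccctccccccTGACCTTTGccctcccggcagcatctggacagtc
F7 had 54.8 and 40.8 CPM in p53KO and 24.5 and 17.7 CPM in DKO, with a log2 fold change of -1.95 with TMM and -1.18 with library totals, so both DKO libraries were lower.

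Apolipoproteins did not move as a block. Of 17 listed genes 8 fell and 3 rose, with 33.3% falling in the most abundant decile of genes. Apoa1, the main protein of high-density lipoprotein, had 4783 and 3671 CPM in p53KO and 1652 and 2147 CPM in DKO (log2 fold change -1.92 with TMM and -1.15 with library totals). Apoe had 8963 and 5551 CPM in p53KO and 4139 and 4906 CPM in DKO (log2 fold change -1.45 with TMM and -0.68 with library totals). Both fell. Apoa4, an apolipoprotein of intestine and of fatty liver, had 52.5 and 24.6 CPM in p53KO and 709 and 1117 CPM in DKO (log2 fold change 3.79 with TMM and 4.55 with library totals). Apoc2, the activator of lipoprotein lipase, had 70.1 and 54.8 CPM in p53KO and 259 and 366 CPM in DKO (log2 fold change 1.55 with TMM and 2.32 with library totals). Both rose.

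Many genes of amino acid and nitrogen metabolism fell, set against 7.01% of all genes and the 33.3% of the most abundant decile. Of 11 urea cycle and ammonia genes past the filter 6 fell and none rose. Otc, the ornithine transcarbamylase, had 718 and 856 CPM in p53KO and 311 and 293 CPM in DKO (log2 fold change -2.15 with TMM and -1.38 with library totals). Arg1, arginase, had 1044 and 978 CPM in p53KO and 403 and 475 CPM in DKO (log2 fold change -1.97 with TMM and -1.20 with library totals). Glul, the glutamine synthetase of cells around the central vein, had 697 and 769 CPM in p53KO and 338 and 361 CPM in DKO (log2 fold change -1.84 with TMM and -1.07 with library totals). Of 18 genes of aromatic amino acid and histidine breakdown 14 fell, among them Hal, histidase, from 377 and 438 to 38.4 and 55.5 CPM (log2 fold change -3.88 with TMM and -3.12 with library totals). Of 15 methionine cycle genes 10 fell and none rose, among them Gnmt, the glycine methyltransferase, from 333 and 371 to 158 and 107 CPM (log2 fold change -2.17 with TMM and -1.41 with library totals). Bhmt, which remethylates homocysteine, fell from 2830.5 and 2016 to 1034 and 801 CPM (log2 fold change -2.17 with TMM and -1.40 with library totals).

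Bile acid synthesis fell in 9 of 12 genes and rose in none, with a median of -2.27 with TMM and -1.5 with library totals. Over all genes 7.01% fell, and in the most abundant decile 33.3%. Cyp8b1, which sets the share of cholic acid, had 287 and 269.8 CPM in p53KO and 5.95 and 9.54 CPM in DKO, with a log2 fold change of -5.93 with TMM (SE 0.84) and -5.17 with library totals. Cyp7b1, of the alternative pathway, had 384 and 399 CPM in p53KO and 42.7 and 31.0 CPM in DKO (log2 fold change -4.17 with TMM and -3.41 with library totals). Baat, which conjugates bile acids to amino acids, had 404 and 436 CPM in p53KO and 93.8 and 105 CPM in DKO (log2 fold change -2.84 with TMM and -2.08 with library totals). Cyp7a1, the rate-limiting enzyme, had 428 and 398 CPM in p53KO and 181 and 69.5 CPM in DKO (log2 fold change -2.48 with TMM and -1.72 with library totals), so the 2 DKO libraries differed from each other more than 2-fold and both were below p53KO. Its call was lost without p53KO 1, p53KO 2 or DKO 3 (edgeR adjusted p = 0.0637, 0.0513 and 0.0787). Of 18 hepatocyte transporters past the filter, out of 19, 8 fell (44.4%) and 3 rose (16.7%, against 25.7% of all genes). The bile acid uptake carrier Slc10a1 fell from 565 and 513 to 144 and 100.2 CPM and the export pump Abcb11 from 1142 and 1150.1 to 653 and 571 CPM. The multidrug pumps Abcb1a and Abcb1b rose, from 4.08 and 5.34 to 48.3 and 74.8 CPM and from 0.986 and 1.96 to 19.3 and 18.7 CPM.

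Of 48 cytochrome P450 genes of families 1 to 3 past the filter, 27 fell and 8 rose. Over all genes 7.01% fell and 25.7% rose, and in the most abundant decile 33.3% fell. Many are near-identical copies, so single members are uncertain. Cyp2c67 had 376 and 525 CPM in p53KO and 32.9 and 28.6 CPM in DKO (log2 fold change -4.64 with TMM and -3.87 with library totals). Cyp2c50 had 1092 and 1179 CPM in p53KO and 111 and 68.8 CPM in DKO (log2 fold change -4.42 with TMM and -3.66 with library totals). Cyp3a11, with the highest counts of the list, had 6171 and 5914 CPM in p53KO and 6016 and 4716 CPM in DKO and was not called (log2 fold change -0.94 with TMM and -0.17 with library totals). Of 48 conjugating enzymes 20 fell and 10 rose. The falling share was above the 7.01% of all genes and not far from the 33.3% of the most abundant decile. The list also holds genes of few counts, for which that decile is no match. Gsta1, a glutathione transferase, had 0.282 and 0.356 CPM in p53KO and 16.2 and 16.8 CPM in DKO (log2 fold change 4.88 with TMM and 5.63 with library totals). Gsta4 had 36.3 and 37.6 CPM in p53KO and 125 and 130.4 CPM in DKO (log2 fold change 1.03 with TMM and 1.79 with library totals), and both rose. Gsta3, the abundant liver form, had 1177 and 1079 CPM in p53KO and 528 and 441 CPM in DKO (log2 fold change -1.98 with TMM and -1.22 with library totals) and fell.

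Among genes with sex-dependent expression in mouse liver, the male-biased ones fell and a part of the female-biased ones rose. All 23 male-biased genes fell, with a median of -4.61 with TMM and -3.85 with library totals. Of 18 female-biased genes past the filter, out of 20, 8 rose (44.4%) and none fell. Over all genes 25.7% rose, and in the 3 deciles with the fewest reads in FF livers 63.8%, 48.1% and 42.6% rose. The female-biased medians were 2.30 with TMM and 3.06 with library totals (2.27 and 3.03 with genes at 0 counts set to their bounds). Mup3 had 7959 and 8842 CPM in p53KO and 139 and 200.1 CPM in DKO (log2 fold change -6.40 with TMM and -5.63 with library totals). Serpina1e, an alpha-1-antitrypsin isoform, had 5578 and 6237 CPM in p53KO and 36.3 and 59.9 CPM in DKO (log2 fold change -7.71 with TMM and -6.94 with library totals). Both belong to families of near-identical copies. Hsd3b5, a steroid dehydrogenase, had 254 and 271 CPM in p53KO and 0.238 and 0.241 CPM in DKO, the latter from 4 counts in all. Cyp2b9, a female-biased P450, had 0.704 and 0.178 CPM in p53KO and 145 and 89.9 CPM in DKO (log2 fold change 7.15 with TMM and 7.91 with library totals). Acot3, an acyl-CoA thioesterase, had 1.55 and 0.356 CPM in p53KO and 35.0 and 26.7 CPM in DKO (log2 fold change 4.14 with TMM and 4.90 with library totals). The DKO libraries were below p53KO for the male-biased genes named and above it for the female-biased ones. The Y-linked genes Ddx3y and Kdm5d, looked up after these values were seen, had 136 to 176 and 39.7 to 44.8 CPM in the 4 livers, and Xist 0.14 to 2.50 CPM, so all 4 libraries carried Y-linked transcripts. Of 21 genes of the growth hormone, STAT5 and insulin-like growth factor axis, which sets male-biased expression, 6 fell and 1 rose. Over all genes 7.01% fell, and in the most abundant decile 33.3%. The list also holds genes of few counts, such as Stat5a, for which that decile is no match. Ghr, the growth hormone receptor, had 871 and 1041 CPM in p53KO and 362 and 267 CPM in DKO (log2 fold change -2.37 with TMM and -1.60 with library totals). Cish, a direct STAT5 target, had 23.9 and 29.5 CPM in p53KO and 6.54 and 5.91 CPM in DKO (log2 fold change -2.86 with TMM and -2.09 with library totals). Stat5a was the riser, from 10.1 and 9.26 to 35.0 and 32.0 CPM.

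Lipid genes were called in both directions. Of 32 genes of lipogenesis and lipid droplets 12 fell and 8 rose. Over all genes 7.01% fell and 25.7% rose, and in the most abundant decile 33.3% fell. The list also holds genes of few counts, such as Scd2, for which that decile is no match. Scd1, the stearoyl-CoA desaturase, had 4067 and 6668 CPM in p53KO and 411 and 416 CPM in DKO (log2 fold change -4.46 with TMM and -3.70 with library totals). Thrsp, a lipogenic nuclear protein, had 206 and 261 CPM in p53KO and 20.6 and 14.1 CPM in DKO (log2 fold change -4.51 with TMM and -3.75 with library totals), with both DKO libraries below p53KO. Scd2, the desaturase of other tissues, had 4.93 and 7.12 CPM in p53KO and 75.0 and 52.4 CPM in DKO (log2 fold change 2.66 with TMM and 3.42 with library totals). Lpl, lipoprotein lipase, had 67.0 and 71.0 CPM in p53KO and 494 and 466.1 CPM in DKO (log2 fold change 2.03 with TMM and 2.80 with library totals). Cd36, the fatty acid translocase, had 60.9 and 68.5 CPM in p53KO and 275 and 295 CPM in DKO (log2 fold change 1.38 with TMM and 2.14 with library totals), with both DKO libraries above. Cholesterol synthesis fell in 16 of 25 genes and rose in none, for example Hmgcs1 (893 and 793 CPM in p53KO and 433 and 288 CPM in DKO) and Fdps (168 and 215 CPM in p53KO and 60.8 and 45.5 CPM in DKO). Of 34 fatty acid oxidation genes 8 rose and 8 fell, so the rising share was near that of all genes (25.7%). The falling share was above the 7.01% of all genes and below the 33.3%. Pdk4, the kinase that shuts off pyruvate oxidation, had 8.73 and 6.41 CPM in p53KO and 141 and 194 CPM in DKO (log2 fold change 3.68 with TMM and 4.45 with library totals). Acot1, a cytosolic thioesterase, had 2.96 and 3.56 CPM in p53KO and 41.0 and 35.4 CPM in DKO (log2 fold change 2.79 with TMM and 3.56 with library totals). Fabp1, the liver fatty acid binding protein, had 1131 and 719 CPM in p53KO and 326 and 341 CPM in DKO (log2 fold change -2.24 with TMM and -1.47 with library totals). Pdk4 and Acot1 were higher and Fabp1 lower in both DKO libraries. Of 18 hepatic glucose enzymes 12 fell and none rose, with Pck1, of gluconeogenesis, at 3269 and 3894 CPM in p53KO and 1125 and 1212 CPM in DKO (log2 fold change -2.38 with TMM and -1.62 with library totals). Glycolytic isozymes of other tissues rose in 9 of 15 genes, among them these 3. Pkm, the muscle-type pyruvate kinase gene, had 8.73 and 8.19 CPM in p53KO and 73.9 and 85.8 CPM in DKO (log2 fold change 2.47 with TMM and 3.23 with library totals). Hk2, hexokinase 2, had 1.97 and 1.78 CPM in p53KO and 15.7 and 15.2 CPM in DKO (log2 fold change 2.26 with TMM and 3.02 with library totals). Pygb, the brain glycogen phosphorylase, had 6.62 and 5.16 CPM in p53KO and 60.3 and 58.2 CPM in DKO (log2 fold change 2.55 with TMM and 3.31 with library totals). All 3 separated the groups.

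Of 32 hepatocyte transcription factors 9 fell and 1 rose. The falling share was above the 7.01% of all genes and near the 33.3% of the most abundant decile. The list also holds genes of few counts, such as Gata6, for which that decile is no match. Thrb, the thyroid hormone receptor, had 125 and 139 CPM in p53KO and 86.7 and 73.7 CPM in DKO (log2 fold change -1.48 with TMM and -0.71 with library totals). Onecut1 had 97.9 and 139 CPM in p53KO and 64.1 and 28.8 CPM in DKO (log2 fold change -2.11 with TMM and -1.35 with library totals), where the DKO libraries differed about 2-fold from each other and the call was lost without p53KO 2 or DKO 3 (edgeR adjusted p = 0.0698 and 0.0702). Thrb and Onecut1 were below p53KO in both DKO libraries. Hnf4a, a central regulator of hepatocyte genes, had 489.6 and 681 CPM in p53KO and 685 and 569 CPM in DKO, and its groups overlapped. Its log2 fold change was -0.66 with TMM and 0.10 with library totals, called lower with TMM only, and the call was lost without p53KO 2 or DKO 3 (edgeR adjusted p = 0.0877 and 0.0667). Gata6, of early liver and other lineages, rose from 4.37 and 4.98 to 16.2 and 28.2 CPM (log2 fold change 1.49 with TMM and 2.25 with library totals).

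**Figure D3:**
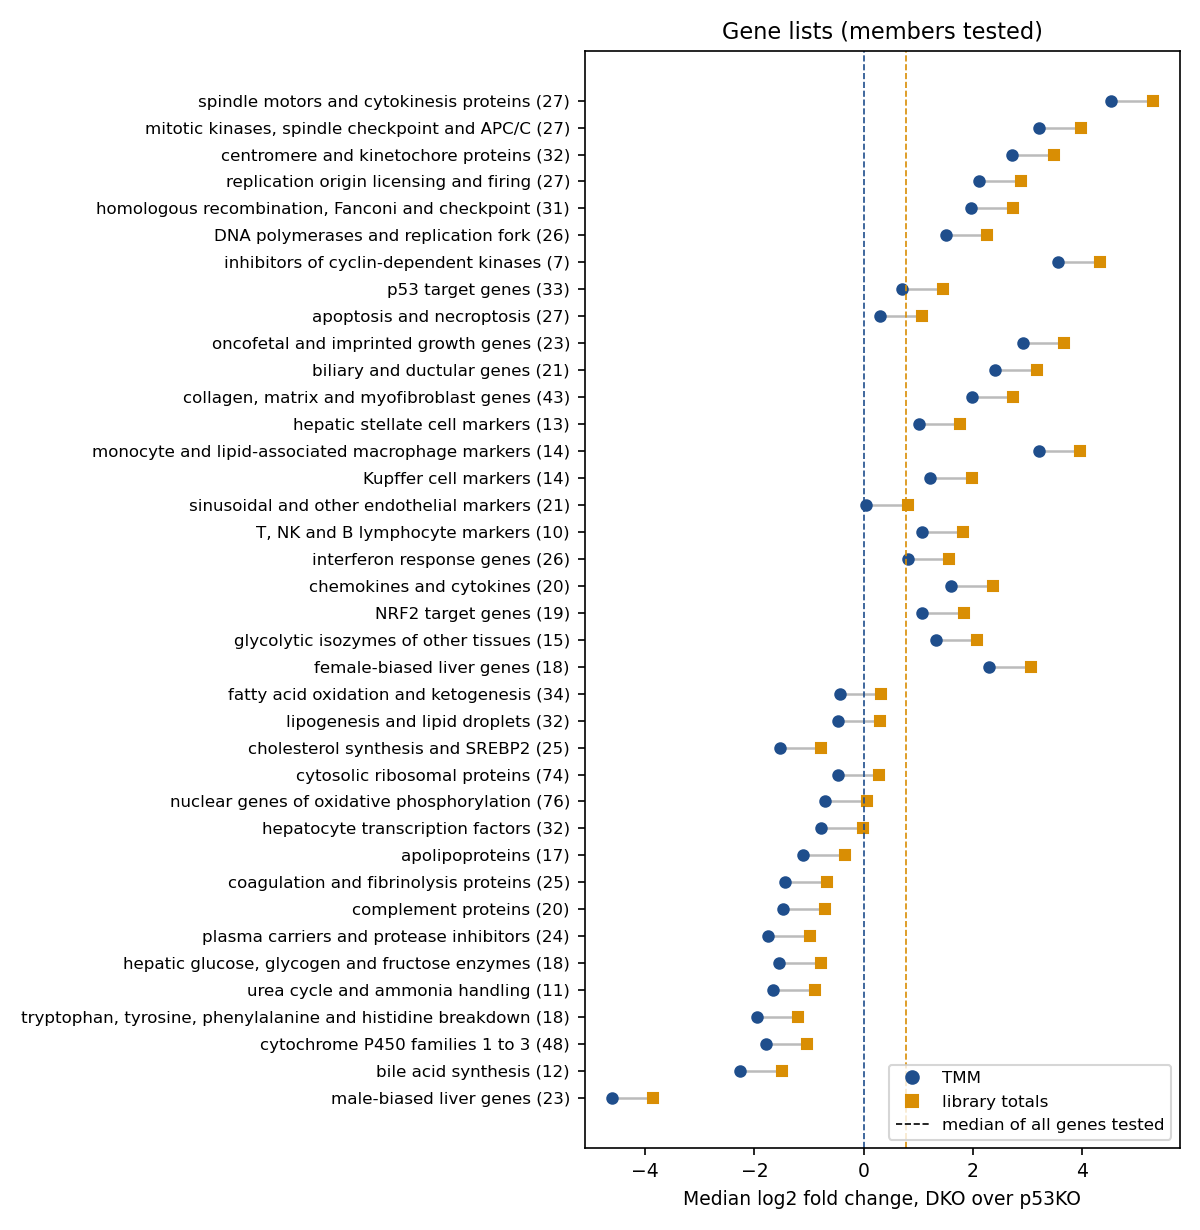
Median log2 fold change of DKO over p53KO for 38 gene lists, with TMM (blue circles) and library totals (orange squares), the number of members tested in brackets and dashed lines at the median of all genes tested. Spindle genes lie highest at 4.52 with TMM and male-biased genes lowest at -4.61, and 4 lists (fatty acid oxidation, lipogenesis, cytosolic ribosomal proteins and oxidative phosphorylation) change side of 0 with the scale.

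Genes of ribosomes and respiration were seldom called on both scales. Of 74 cytosolic ribosomal protein genes past the filter none rose or fell on both scales, 34 were called lower with TMM (against 25.7% of all genes) and 28 higher with library totals (against 64.3%), and the median was -0.48 with TMM and 0.29 with library totals. Of 76 nuclear genes of oxidative phosphorylation 4 fell and none rose on both scales, with 52 called lower with TMM and 16 higher with library totals, and the median was -0.71 with TMM and 0.06 with library totals. The 2 scales differ by a near-constant shift, and the medians of both lists lay below the median of all genes on either scale (0.009 with TMM and 0.77 with library totals).

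The change at 8 weeks was set against the same contrast in the other experiments, which share no library with it, by the difference of effects in edgeR. Relative to the effect 24 hours after tamoxifen (DKO TAM over p53KO TAM), the effect in DKO was higher for 1830 genes (13.4%) and lower for 670 (4.89%) on both scales. Relative to the effect with p53 intact (KO over FF), it was higher for 1336 genes (9.76%) and lower for 499 (3.64%). The experiments differ in more than p53 or time. The first used an inducible Cre and tamoxifen and its controls differed from untreated p53KO livers, for example in Lcn2 at 668 and 379 CPM, and the second was taken a week earlier, so these factors cannot be told apart.

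The spindle list had a median TMM log2 fold change of 4.52 in DKO, 1.31 in KO and 1.80 in DKO TAM, and 24 of 27 members had a higher effect in DKO by either difference. Aurka had 2.83 and 1.62 CPM in FF, 6.35 and 7.02 in KO, 1.64 and 2.48 in p53KO TAM, and 9.23 and 11.5 in DKO TAM, so it was higher in the Cre-carrying group of each experiment (called on both scales) and highest in the 2 DKO libraries. The median of the matrix list was 1.97 in DKO, 0.30 in KO and -0.25 in DKO TAM, and 30 and 36 of 43 genes had a higher effect in DKO than in KO and than in DKO TAM. Lum had 14.9 and 16.6 CPM in KO and 17.7 and 12.6 in DKO TAM, against 99.3 and 103 in DKO. Oncofetal genes had a median of 2.91 in DKO, 0.33 in KO and 0.10 in DKO TAM. Afp had 9.98 and 7.60 CPM in KO and 16.0 and 11.9 in DKO TAM.

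p53 target genes ran against this order. Their median TMM log2 fold change was 0.70 in DKO, 1.66 in KO and 0.24 in DKO TAM, and 12 of 33 had a lower effect in DKO than in KO while 1, Ckap2, had a higher one. The 12 were Mdm2, Ccng1, Zmat3, Trp53inp1, Ei24, Aen, Fas, Btg2, Polk, Dcxr, Ercc5 and 9030617O03Rik, all named because the difference called them. Mdm2 had 54.7 and 49.0 CPM in FF and 155 and 226 in KO, beside 53.7 and 43.1 CPM in p53KO and 72.7 and 79.9 CPM in DKO. Interferon genes had a median of 0.80 in DKO, -0.60 in KO and -0.35 in DKO TAM, and 21 of 26 had a higher effect in DKO than in KO. Oasl2 had 11.4 and 15.2 CPM in KO against 12.8 and 7.67 in FF.

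**Figure D4:**
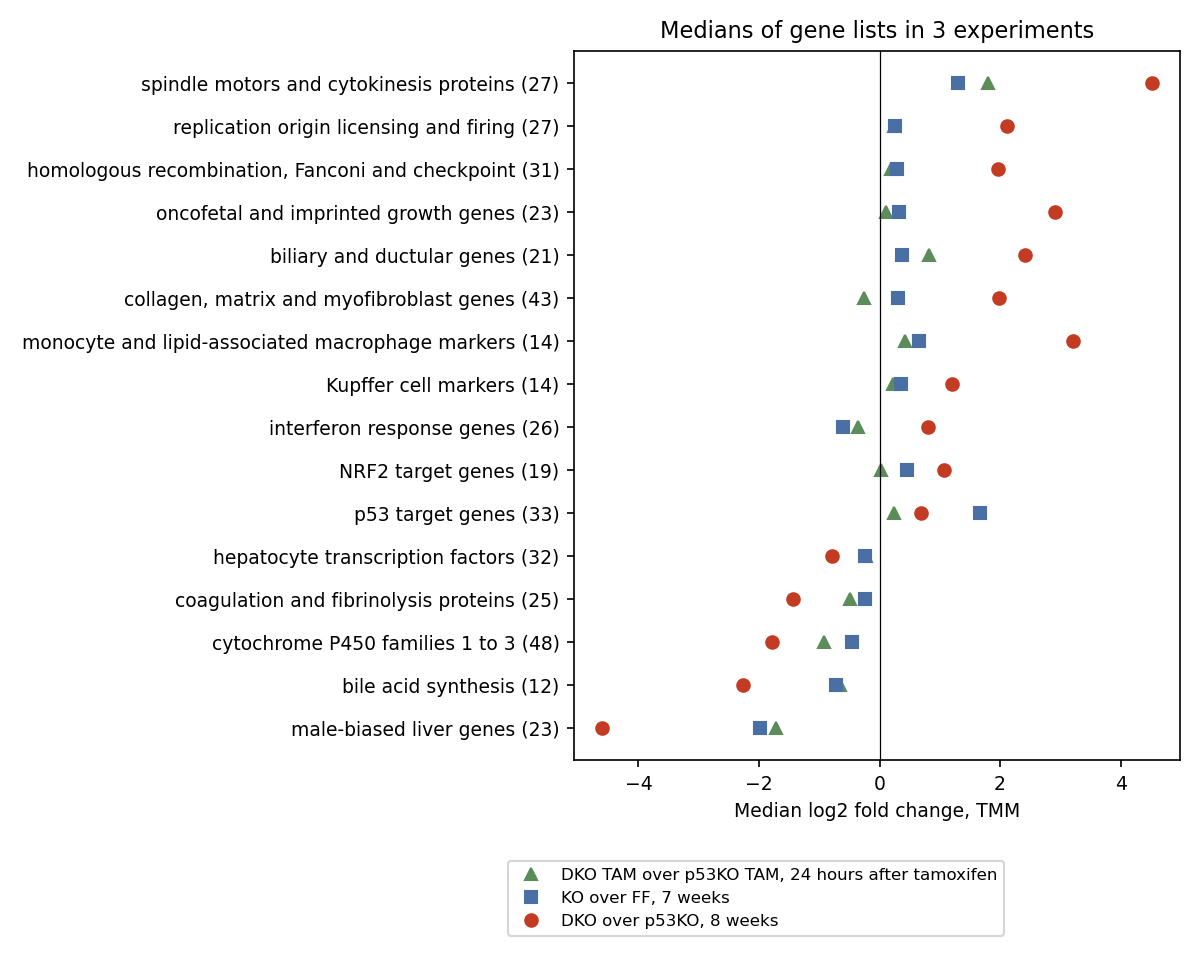
Median TMM log2 fold change of 16 gene lists in the 3 experiments of the series (red circles DKO over p53KO at 8 weeks, blue squares KO over FF at 7 weeks, green triangles DKO TAM over p53KO TAM 24 hours after tamoxifen), with the number of members in brackets. The 8-week DKO medians lie farthest from 0 in every list shown except the p53 target genes, where KO reaches 1.66 and DKO 0.70.

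The 2 DKO libraries differed from each other in some of these genes. DKO 2 was more than 2-fold above DKO 3 in Cyp7a1 (given above) and in Inmt, a methyltransferase, at 41.7 and 18.3 CPM, against 191 and 246 in p53KO. DKO 3 was more than 2-fold above DKO 2 in Cidec, a lipid droplet protein, at 28.3 and 69.2 CPM, against 3.66 and 1.78 in p53KO, and in the metallothionein gene Mt2, at 28.7 and 76.4 CPM, against 16.8 and 10.5 in p53KO. For Inmt and Cidec both DKO libraries lay on the same side of p53KO.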

How the data were processed

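Total RNA libraries of whole liver were sequenced with the SMARTer Stranded Total RNA kit, per the labels' protocols. The authors deposited raw read counts per gene; HISAT2, featureCounts, CASAVA and the mm10/GRCm38 build are named in the submitters' processing notes, and the headers of 4 files name featureCounts 1.6.4. A strand option is not given in the sources used here, so overlapping and antisense genes and near-identical copies are uncertain. CPM were computed from the deposited counts and each library's total.

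Genes were kept by edgeR's filterByExpr (minimum count 10). Quasi-likelihood tests (R 4.3.3, edgeR 4.0.16, limma 3.58.1) were fitted to all 12 libraries in 6 groups with TMM factors and again with library totals, and were Benjamini-Hochberg adjusted over all tested genes. The residual degrees of freedom were 6. Where a group had 0 counts, fold changes are lower bounds against 3 counts over the group. With 1 to 3 counts, the ratio is given with its exact interval. Intervals cover counting error only. The list medians include the fitted values of genes at 0 counts.

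The members, gene lists and tests were chosen with earlier results of these data known. For lists of up to 15 members any member could be named, and for longer lists the members with the largest changes in each direction and the highest counts in p53KO. In addition the largest changes over all genes, differences of effects and differences between the DKO libraries were named. The alternatives tried were RLE and upper-quartile scaling, DESeq2 1.42.0, limma-voom, other filters, thresholds and sample sets, removal of mitochondrial, haemoglobin and ribosomal RNA genes, each library left out, and the replicate block.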

Additional observations from a re-analysis of the deposited data

Results flagged for a closer look

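The results here differed between experiments by a test of the difference of effects. Tamoxifen, the kind of Cre, age and p53 differ with the experiment, and their part was not tested. Relative to DKO TAM, 1830 genes (13.4%) had a higher effect in DKO and 670 (4.89%) a lower one on both scales. Relative to KO, 1336 (9.76%) were higher and 499 (3.64%) lower. The lists are to be read against these shares. Of 27 spindle motors and cytokinesis proteins, 24 were higher relative to KO and 24 relative to DKO TAM. Of 43 matrix and myofibroblast genes 30 and 36 were higher, and of 26 interferon response genes 21 and 14. Of 23 male-biased genes 15 and 17 were lower, and 12 of 33 p53 target genes were lower relative to KO. The controls differed in sex-biased genes. Male-biased genes summed to 24038 and 27264 CPM in p53KO and 12574 and 15744 in p53KO TAM. Female-biased genes summed to 106 and 129 CPM in p53KO and 667 and 682 in p53KO TAM. Y-linked genes were looked up only in the 4 livers at 8 weeks.

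Single genes are given as log2 differences of effects, with TMM and then with library totals. Aurka, the spindle kinase, differed by 2.67 and 3.18 relative to KO and by 2.04 and 2.45 relative to DKO TAM. Afp, alpha-fetoprotein, differed by 3.72 and 4.22 relative to KO and by 2.85 and 3.27 relative to DKO TAM. Lum, the matrix proteoglycan, differed by 2.89 and 3.40 and by 2.68 and 3.10 in the same order. Oasl2, the interferon response gene, differed by 1.42 and 1.94 and by 1.40 and 1.82.

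Serpina1e, of a family of near-identical copies, differed by -5.83 and -5.31 relative to KO and by -4.28 and -3.86 relative to DKO TAM. Ces3b, a liver carboxylesterase, differed by -4.69 and -4.18 relative to KO. Cyp8b1, of bile acid synthesis, differed by -4.54 and -4.12 relative to DKO TAM. Mdm2, the p53 target and p53 ligase, differed by -1.75 and -1.23 relative to KO and was chosen after its values were seen.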

How the results depend on the processing

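The count of called genes kept within 1.5 times of its main value under RLE scaling (7001 with TMM replaced), upper-quartile scaling (7097), DESeq2 (5798), limma-voom (7018), a fit to the 4 compared libraries (7015), no filter beyond 1 count (7068), a stricter filter (6549) and removal of mitochondrial, haemoglobin and ribosomal RNA genes (7046). The split into higher and lower moved with scaling, to 4662 and 2435 with the upper quartile and to 8809 and 960 with library totals. A minimum of 2-fold, which by construction drops smaller changes, left 3816 genes with TMM (1357 lower), 5699 with library totals (5241 higher) and 2917 on both scales (2459 higher). For the difference of effects between DKO and DKO TAM, 3780 with TMM in the main analysis, it left 2346 (317 lower on both scales), and for that between DKO and KO, 3106 in the main analysis, 1889 (249 lower). At an adjusted p under 0.01 these became 2069 (1049 higher and 353 lower on both scales) and 1546 (640 and 252). Leaving out each library in turn gave 433 to 658 genes lower on both scales for the first difference, and 2035 to 2751 genes, 302 to 448 of them lower on both scales, for the second, the lowest each time without DKO 3. Each of these fits rests on a lone library in 1 group, assumed to vary like the others.

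The replicate numbers were not taken to pair the samples. By the numbers of the descriptions, which count DKO 2 and DKO 3 as the first and second, the deviations of p53KO 1 and DKO 2 had r = -0.101 across genes. For p53KO 1 with p53KO TAM 1, DKO 2 with DKO TAM 1 and FF 1 with KO 1, r was 0.00846, 0.179 and 0.148, so not every pair deviated together. With the replicate block 6986 genes were called with TMM, 9767 with library totals and 4455 on both scales, and 3696 and 2988 for the differences of effects. The crossed pairing, added after seeing the data, called 7012, 9807 and 4444.

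Over 188 named genes and 17 alternatives, 3074 values kept direction and side of the threshold, 91 lost the call, 13 gained it and 16 changed sign. With library totals the log2 fold changes that changed sign were 0.085 for Atm, 0.17 for Ccng1, 0.26 for Cdk6, 0.0087 for Fn1, 0.10 for Hnf4a, 0.61 for Mcl1, 0.65 for Mdm2, 0.60 for Orc3, 0.066 for Polr2m, 0.28 for Pttg1, 0.27 for Stab2 and 0.031 for Trp53inp1. With the upper quartile they were 0.061 for Mcl1, 0.10 for Mdm2 and 0.048 for Orc3, and with 1 library left out -0.27 to 0.053 for Mdm2, positive without p53KO 1. Medians turned positive with library totals for the acute phase genes (0.039), cytosolic ribosomal proteins (0.29), elongation factors (0.72), endoplasmic reticulum stress genes (0.14), fatty acid oxidation (0.32), lipogenesis (0.29) and oxidative phosphorylation (0.058). The elongation median was 0.18 with the upper quartile and -0.078 to 0.032 when a library was left out, and the endothelial median -0.029 to 0.082. Apart from scaling by construction, the cause was not tested. Genes under the 3-count floor, 0.357 to 0.534 CPM per library, cannot be told from absent at this depth.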
